A study of Homo sapiens with 12 samples.

Results

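The genes described here are 10 genes that cells raise when misfolded proteins gather in the endoplasmic reticulum (ER), the compartment in which secreted and membrane proteins fold. They are HSPA5, HSP90B1, DNAJB9, SDF2L1, HERPUD1, XBP1, PDIA4, CRELD2, MANF and EDEM1, chosen by symbol from the table of gene counts, in which 40295 gene identifiers make 36486 symbols and unnamed identifiers. Each of the 10 genes has 1 identifier in the table, that of HSPA5 being ENSG00000044574, of HERPUD1 ENSG00000051108 and of XBP1 ENSG00000100219, and all 10 passed the filter on low counts in both cell lines. RNA-seq was read in 12 libraries. TOV-112D, an ovarian cancer line whose only labelled p53 form is p53-R175H, was treated for 3 h with DMSO as the vehicle, UCI-1001 or UCI-1014, with 2 libraries each. Saos-2, an osteosarcoma line, was sampled as parental p53-null cells and as cells carrying a lentiviral, doxycycline-inducible p53-WT, with 3 libraries each. The labels give 16 h of induction for both Saos-2 groups. Whether the p53-WT line is a single clone, and whether the libraries of a group came from separate cultures, is not given in the sources used here, so the p-values measure the spread between these libraries, which may be technical. UCI-1001 and UCI-1014 are related pyrimidine triones, and UCI-1014 carries a methoxy group in place of the nitro group of UCI-1001. For RNA-seq the authors state a dose of 10 µM for UCI-1001. The UCI-1014 dose used for RNA-seq is not given in the sources used here.

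The unfolded protein response is run by 3 sensors in the ER membrane. IRE1 (gene ERN1) cuts XBP1 mRNA, and the rejoined message encodes an active transcription factor. ATF6 is cut by proteases in the Golgi and its free end enters the nucleus. PERK (gene EIF2AK3) phosphorylates the initiation factor eIF2alpha, which lowers translation in general and raises that of ATF4. The 10 genes serve different steps: HSPA5 (BiP) and HSP90B1 (GRP94) are the main ER chaperones of the HSP70 and HSP90 families, DNAJB9 and SDF2L1 are partners of HSPA5, PDIA4 is a protein disulfide isomerase, CRELD2 and MANF are stress-induced ER proteins that can be secreted, and HERPUD1 and EDEM1 serve ER-associated degradation. Cytosolic heat shock genes, the set used for comparison, answer to misfolded protein in the cytosol and nucleus through the factor HSF1.

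The sequences that bear on these genes are shown first. IRE1 removes 26 bases from XBP1 mRNA. In GRCh38 with GENCODE release 44, these bases lie in coding sequence at chr22:28796128-28796153 on the minus strand, and because bases repeat at their edges the same gap can be placed at other neighbouring positions. The stretch chr22:28796106-28796175 is given as it stands in a transcript that holds the 26 bases, ENST00000216037, with those bases in capitals, and as it stands in the transcript that lacks them, ENST00000344347:
XBP1 unspliced: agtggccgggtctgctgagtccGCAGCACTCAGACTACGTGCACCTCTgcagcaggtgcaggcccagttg
XBP1 spliced: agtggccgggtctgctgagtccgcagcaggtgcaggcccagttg

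Promoters of the 10 genes were searched on both strands for the ER stress element (ERSE: CCAAT, 9 bases of any kind, CCACG), for ERSE-II (ATTGG, 1 base, CCACG), for the core of the unfolded protein response element (TGACGTG) and for a heat shock element of 3 units, GAA and TTC in turn with 2 bases between them. The search covered the 250 bases before each gene start given by RefSeq on GRCh38.p14. ERSE was found in 4 of the 10 genes and 4 of their 12 windows, against 0.074% of 35116 windows of the same length over all genes. The 10 genes were chosen as ER stress genes, so this share describes them and tests nothing. The matches are printed on the gene's own strand with 5 bases on either side, the motif in capitals, so that a match on the opposite strand runs from CGTGG to ATTGG:
HSPA5, chr9:125241386-125241414, minus: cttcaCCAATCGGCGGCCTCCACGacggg
HSP90B1, chr12:103930211-103930239, plus: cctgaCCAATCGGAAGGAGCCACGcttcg
HSP90B1, chr12:103930316-103930344, plus: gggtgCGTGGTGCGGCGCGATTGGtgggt
XBP1, chr22:28800598-28800626, minus: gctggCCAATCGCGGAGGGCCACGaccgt
CRELD2, chr22:49918549-49918577, plus: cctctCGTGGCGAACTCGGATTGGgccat

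ERSE-II was found in 2 further genes, HERPUD1 and SDF2L1, which is 2 of the 12 windows, against 0.051% of all windows. These matches share CCACG with ERSE and are shown in the same way, that of SDF2L1 lying on the opposite strand:
HERPUD1, chr16:56932020-56932040, plus: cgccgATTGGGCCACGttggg
SDF2L1, chr22:21642109-21642129, plus: ggaagCGTGGACCAATcaaaa

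The separate pieces of ERSE are common: CCAAT and CCACG each occurred before at least 1 start of all 10 genes and in 32.0% and 33.5% of all windows. DNAJB9, PDIA4, MANF and EDEM1 held neither full ERSE nor ERSE-II in this window. The core TGACGTG was found before 0 of the 10 genes and before 1 of the 16 cytosolic heat shock genes that have a window, HSP90AB1. That is 1 of the 26 windows of those 16 genes, beside 1.68% of all windows. The heat shock element was found before 0 of the 10 genes and before 5 of those 16 heat shock genes, HSPA6, HSPA8, HSP90AA1, HSP90AB1 and CHORDC1. That is 5 of their 26 windows, against 0.441% of all windows. Only exact matches were counted, and HSPA1A, HSPA1B, DNAJB1, BAG3 and HSPH1 were among the heat shock genes without one. ERSE and ERSE-II were found before 0 of those 16 genes. The heat shock element nearest to the start of HSPA8, the constitutive cytosolic HSP70, and that of HSPA6, a strictly inducible HSP70, are shown for contrast:
HSPA8, chr11:123062174-123062196, minus: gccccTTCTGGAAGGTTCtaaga
HSPA6, chr1:161524461-161524483, plus: aaaggTTCGCGAAAGTTCgcggc

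**Figure D1:**
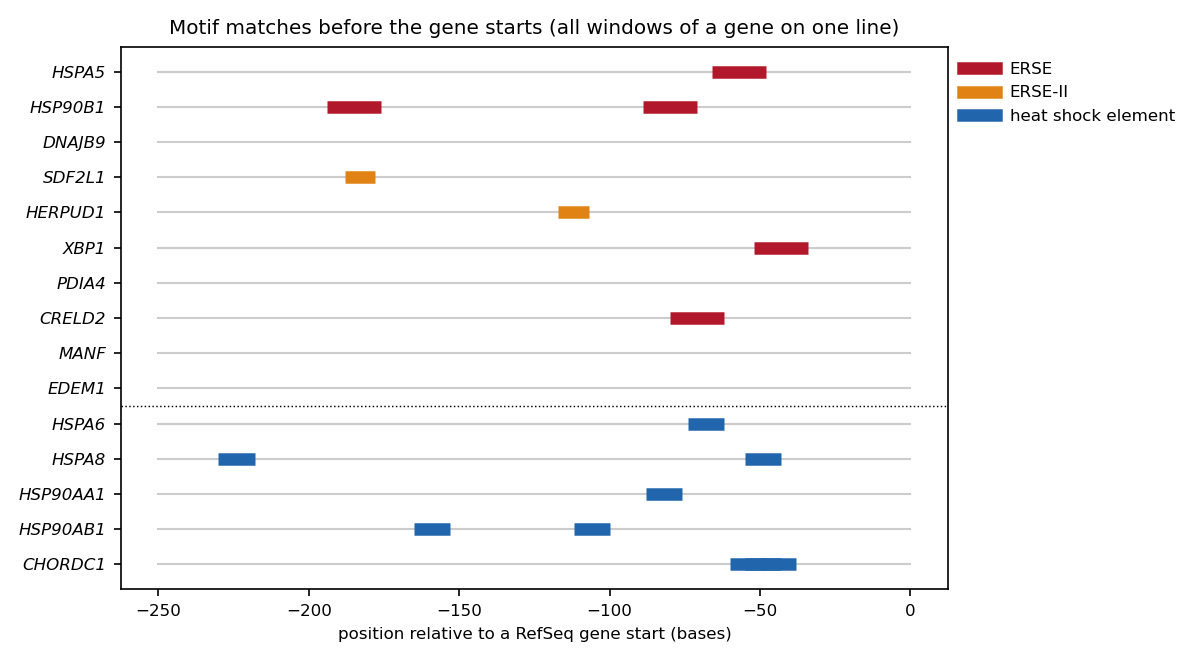
Motif matches in the 250 bases before the RefSeq gene starts, with the distance from the start in bases on the horizontal axis and a line per gene (windows of a gene with several starts are drawn on the same line). ERSE and ERSE-II matches sit before 6 of the 10 genes above the dotted line, and the heat shock element only before the 5 cytosolic heat shock genes below it, which are drawn because they hold a match.

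Before the comparisons, the libraries were checked against their labels. The gene counts deposited by the authors summed to between 17762027 and 24629558 per library. Markers of the labelled tissues were mixed, and many were higher in the line with the other label. Of 6 osteoblast genes, RUNX2 had 94 to 256 counts in the Saos-2 libraries, while SP7 had 0, BGLAP 1 to 4, ALPL 0 to 12, SPARC 4 to 12 and COL1A1 8 to 42. Of 6 genes of ovarian carcinoma epithelium, EPCAM had 34 to 57, WT1 23 to 45 and CDH1 16 to 30 counts in the TOV-112D libraries, while KRT18 had 0, PAX8 0 to 1 and KRT8 1 to 10. The keratin genes KRT8 and KRT18 had 4098 to 12822 and 8068 to 12739 counts in Saos-2. There PAX8 had 69 to 171 and WT1 89 to 305 counts, while EPCAM had 0 to 2 and CDH1 2 to 6. In TOV-112D, COL1A1 had 888 to 992, ALPL 32 to 49, SPARC 25 to 41 and SP7 1 to 7 counts. RUNX2, at 92 to 170, and BGLAP, at 2 to 6, overlapped with Saos-2. Whether the lines are as labelled was not tested. No 2 libraries of a group agreed within sampling noise, for which the chi-square of their counts per degree of freedom would be 1. It was 2.08 to 3.73 within the TOV-112D groups. In Saos-2, replicate 1 of each group stood apart, at 23.0 and 24.7 from the other p53-null and at 38.0 and 38.4 from the other p53-WT libraries, which were at 3.79 and 3.09 from each other. Results in Saos-2 are therefore also given without both replicate 1 libraries. Counts are given below as CPM, counts relative to the library total after scaling that total with edgeR's TMM factors within a cell line. A gene is said to have risen or fallen where edgeR's quasi-likelihood test gave a Benjamini-Hochberg adjusted p-value under 0.05 over all genes tested, 14177 in TOV-112D and 14275 in Saos-2.

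The 10 genes cover a wide range of levels. On the TPM scale, which corrects for transcript length, the DMSO libraries held HSP90B1 at 657 and 668, PDIA4 at 306 and 307, HSPA5 at 279 and 291, MANF at 148 and 157, SDF2L1 at 116 and 121, CRELD2 at 57.2 and 58.6, XBP1 at 33.9 and 38.1, HERPUD1 at 27.6 and 32.0, EDEM1 at 20.7 and 22.1 and DNAJB9 at 3.82 and 6.39. No neighbours in this order overlapped between the 2 DMSO libraries. The chaperones and the isomerase thus stood at the top, and the degradation factors and DNAJB9 at the bottom. With UCI-1014, HERPUD1 at 113 and 128 TPM lay above SDF2L1 at 84.9 and 99.7, and XBP1 at 86.2 and 94.1 overlapped SDF2L1.

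The first comparison asks what UCI-1001 did to these genes within 3 h. HERPUD1 and XBP1 rose, and the other 8 genes did not pass the test. HERPUD1, a ubiquitin-like protein of the ER membrane that helps to assemble the degradation machinery, is annotated by GENCODE on GRCh38 at chr16:56932142-56944864 on the plus strand. It was at 21.7 and 22.2 CPM with DMSO and at 46.9 and 60.3 CPM with UCI-1001. Both treated libraries lay above both controls, and the log2 fold change was 1.29 (standard error 0.11, adjusted p = 1.66e-06, edgeR). XBP1, the transcription factor whose message IRE1 cuts, lies at chr22:28794555-28800597 on the minus strand and was at 33.3 and 34.1 CPM with DMSO and at 51.9 and 61.1 CPM with UCI-1001. Its groups did not overlap either, with a log2 fold change of 0.74 (standard error 0.08, adjusted p = 1.14e-05, edgeR).

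The 2 genes that rose with UCI-1001 make 2 of 10, where 9.39% of all genes tested rose, and 0 of 10 fell, where 6.36% of all genes fell. The median log2 fold change of the 10 genes was 0.01, beside 0.00 over all genes. HSPA5, the best known marker of ER stress, was at 692 and 679 CPM with DMSO and at 696 and 706 CPM with UCI-1001. Its log2 fold change was 0.03 with a 95% interval from -0.04 to 0.10. The intervals were as narrow for HSP90B1, from -0.09 to 0.05, and for PDIA4, from -0.07 to 0.07. For SDF2L1, CRELD2 and MANF they reached no further than -0.19 and 0.17. The estimate was less precise for the weakly expressed DNAJB9, which, at 5.62 and 5.09 CPM with DMSO and at 6.64 and 6.69 CPM with UCI-1001, had a log2 fold change of 0.31 (adjusted p = 0.178, edgeR) and an interval from -0.00065 to 0.63. EDEM1, a lectin-like protein that marks misfolded glycoproteins for degradation, was at 66.1 and 71.1 CPM with DMSO and at 61.4 and 62.4 CPM with UCI-1001, without overlap, and its log2 fold change of -0.15 missed the threshold (adjusted p = 0.088, edgeR). On TPM its groups lay the other way, at 22.1 and 20.7 with DMSO and at 22.7 and 28.4 with UCI-1001. That change, 0.24 on the log2 scale, was not called either (adjusted p = 0.354, limma).

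UCI-1014 was compared with the same 2 DMSO libraries, so that this comparison and the previous share their controls. Here 4 of the 10 genes rose, HERPUD1, XBP1, DNAJB9 and HSPA5, and 3 fell, SDF2L1, CRELD2 and EDEM1. Over all genes, 23.7% rose and 23.4% fell, so the count of falls is close to that of genes in general. Whether the count of rises differs from the share over all genes was not tested. The median of the 10 genes was -0.01, beside -0.02 over all genes. HERPUD1 reached 104 and 91.1 CPM, a log2 fold change of 2.15 (standard error 0.10, adjusted p = 5.54e-10, edgeR). XBP1 reached 96.4 and 91.3 CPM, a log2 fold change of 1.48 (standard error 0.07, adjusted p = 7.38e-10, edgeR). For both genes the UCI-1014 libraries were above every UCI-1001 and DMSO library.

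DNAJB9, a J-domain cochaperone of HSPA5, was at 11.5 and 9.87 CPM with UCI-1014 and so above all other TOV-112D libraries, with a log2 fold change of 0.99 (standard error 0.14, adjusted p = 3.91e-05, edgeR). HSPA5 itself was at 819 and 824 CPM, a small but well-separated difference with a log2 fold change of 0.26 (standard error 0.03, adjusted p = 1.38e-05, edgeR). HSP90B1 was at 1101 and 1104 CPM with DMSO and at 1119.6 and 1138 CPM with UCI-1014. Its log2 fold change of 0.03 did not pass the test (95% interval -0.03 to 0.10), and the same held for PDIA4 at -0.06 (interval -0.13 to 0.01) and MANF at -0.08 (interval -0.21 to 0.04).

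The 3 genes that fell did so by little. SDF2L1, a partner of HSPA5 in the ER lumen, was at 49.8 and 48.0 CPM with DMSO and at 35.1 and 42.3 CPM with UCI-1014, a log2 fold change of -0.34 (standard error 0.08, adjusted p = 0.0031, edgeR). CRELD2, an ER protein with a thioredoxin-like motif, was at 44.1 CPM in both DMSO libraries and at 33.7 and 38.7 CPM, a log2 fold change of -0.28 (standard error 0.07, adjusted p = 0.0049, edgeR). EDEM1 was at 58.4 and 60.2 CPM, a log2 fold change of -0.21 (standard error 0.06, adjusted p = 0.0069, edgeR). In all 3 genes both UCI-1014 libraries lay below both DMSO libraries. Without UCI-1014 replicate 1, the lower of the 2 for each of them, only SDF2L1 was still called lower, and CRELD2 (adjusted p = 0.0727, edgeR) and EDEM1 (adjusted p = 0.0509, edgeR) were not. EDEM1 was not called without DMSO replicate 2 (adjusted p = 0.110, edgeR) or on TPM (-0.22, adjusted p = 0.232, limma).

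The scaling bears on the small changes of UCI-1014. Its TMM factors were 0.943 and 0.944, against 1.02 to 1.04 for the other TOV-112D libraries. With library totals in place of these factors, in a fit added after the data were seen, the median of all genes fell to -0.15 and HSP90B1, PDIA4 and MANF were called lower too, giving 4 genes up and 6 down of 10, beside 4 and 3 with TMM. Over all genes the share of calls that were rises moved from 50.4% to 30.1%. Relative to that median, HSP90B1, at -0.10, remained above it and HERPUD1, XBP1, DNAJB9 and HSPA5 stayed called higher, HSPA5 at 0.13 in place of 0.26.

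**Figure D2:**
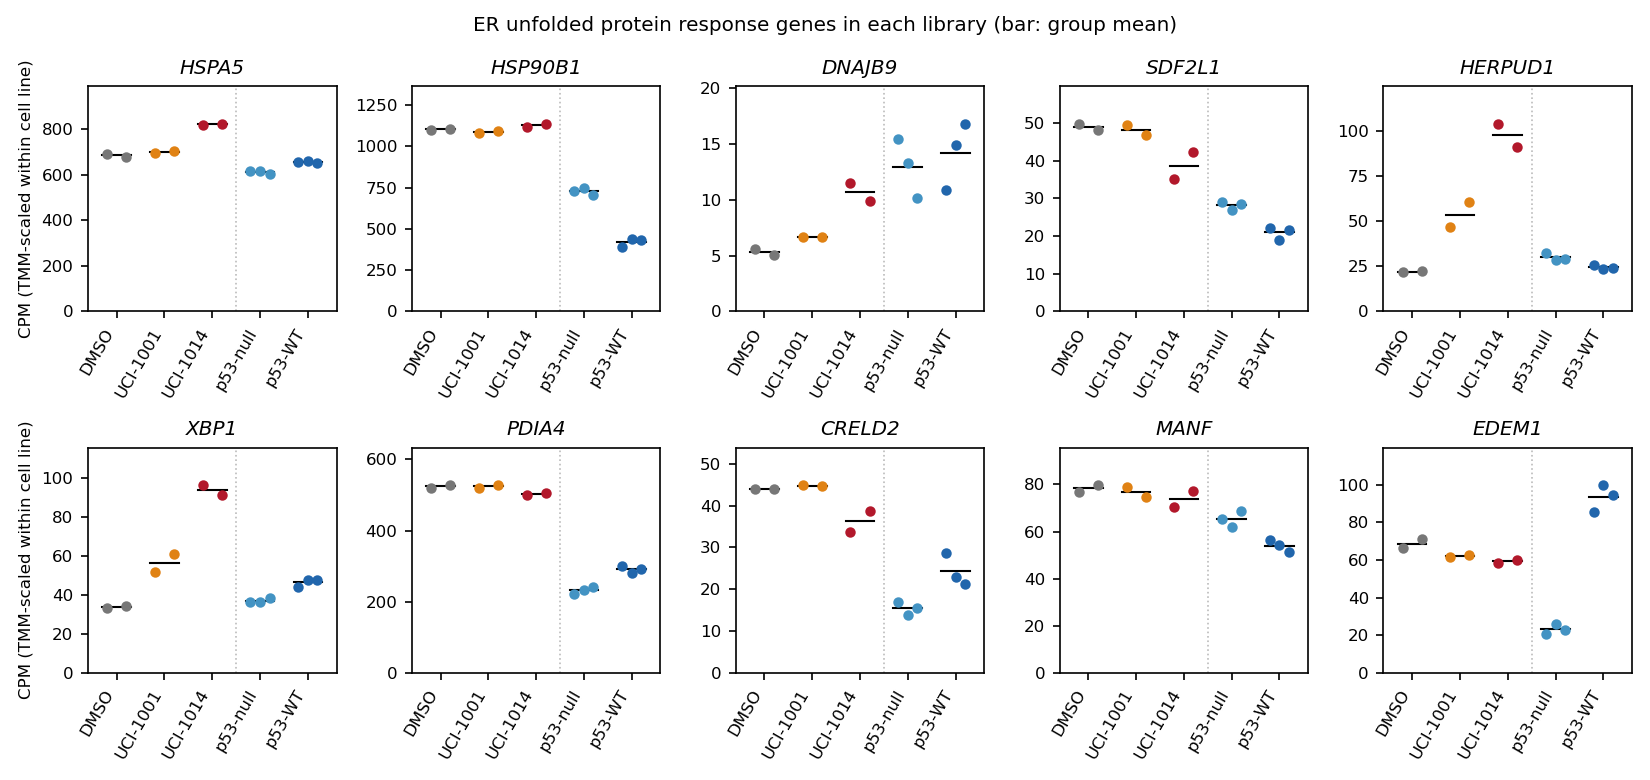
CPM of the 10 genes in each of the 12 libraries, with a point per library and a bar at the group mean on axes that start at 0; the dotted line parts TOV-112D from Saos-2. HERPUD1 and XBP1 step up from DMSO over UCI-1001 to UCI-1014 without overlap, HSPA5 and DNAJB9 stand higher with UCI-1014, and EDEM1 and HSP90B1 part the Saos-2 groups.

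UCI-1014 was also set directly against UCI-1001. The same UCI-1014 libraries served as in the comparison with DMSO, so these comparisons are not independent. The times match, but whether the doses match is not given in the sources used here, so a difference in dose and a difference in structure cannot be told apart. All 4 genes that rose with UCI-1014 over DMSO were also higher than with UCI-1001: HERPUD1 by a log2 fold change of 0.86 (standard error 0.09, adjusted p = 6.57e-06, edgeR), XBP1 by 0.73 (standard error 0.07, adjusted p = 1.98e-06, edgeR), DNAJB9 by 0.67 (standard error 0.13, adjusted p = 0.0015, edgeR) and HSPA5 by 0.23 (standard error 0.03, adjusted p = 1.1e-04, edgeR). They make 4 of 10, where 17.1% of all genes were higher with UCI-1014. SDF2L1 at -0.31 and CRELD2 at -0.30 were lower, 2 of 10 where 13.9% of all genes were lower. Neither of these falls was called without UCI-1014 replicate 1 (adjusted p = 0.113 and 0.0667, edgeR), and that of SDF2L1 was not called without UCI-1001 replicate 1 (adjusted p = 0.0741, edgeR). For the remaining 4 genes the intervals of the difference were -0.01 to 0.12 for HSP90B1, -0.13 to 0.01 for PDIA4, -0.18 to 0.07 for MANF and -0.18 to 0.06 for EDEM1, which on TPM was called lower, at -0.45 (adjusted p = 0.0485, limma). With library totals in place of TMM, PDIA4, MANF and EDEM1 were called lower as well, which makes 4 higher and 5 lower, and HSPA5 was at 0.11 in place of 0.23.

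**Figure D3:**
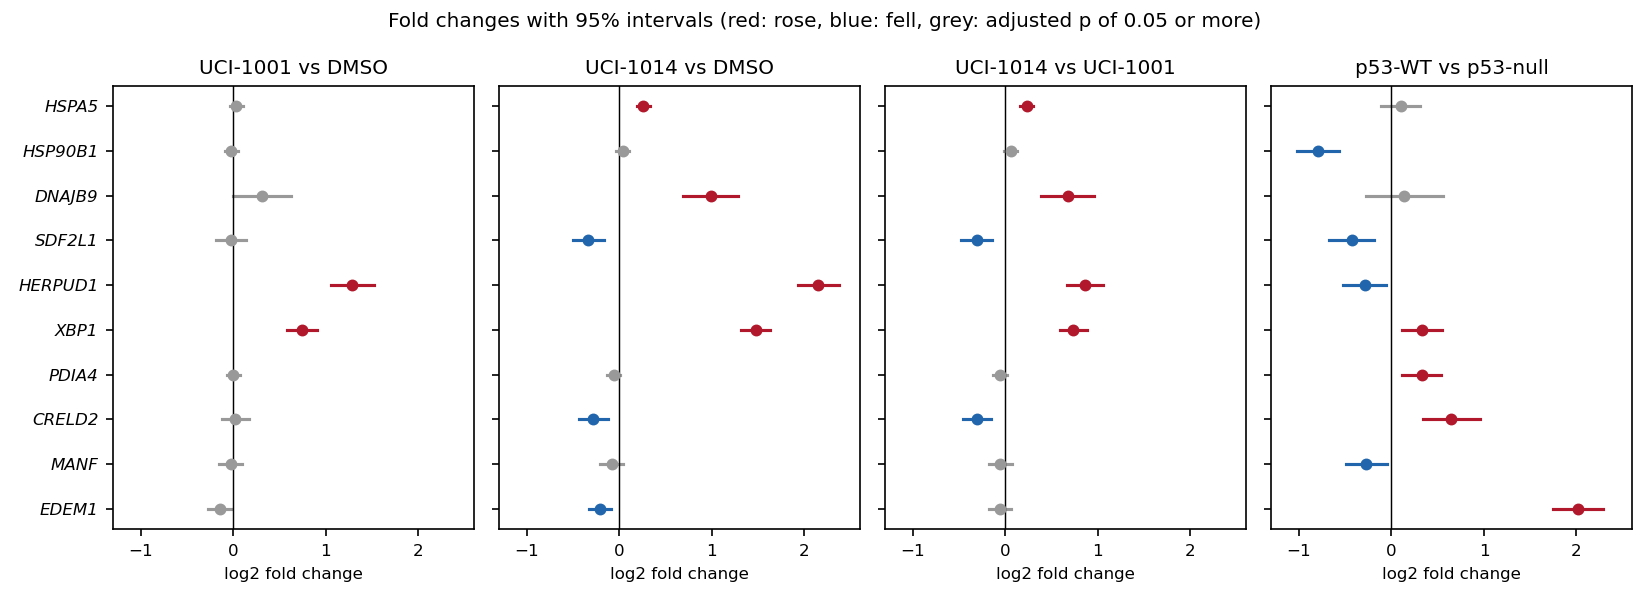
Log2 fold changes of the 10 genes in the 4 comparisons, with a point per gene and its 95% interval as a line; red genes rose, blue genes fell and grey genes had an adjusted p-value of 0.05 or more. With UCI-1001 only HERPUD1 (1.29) and XBP1 (0.74) are red, while with p53-WT the same genes lie at -0.29 and 0.33 and EDEM1 is farthest out at 2.02.

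The increase of XBP1 with the compounds was followed to its transcripts, using the transcript counts that kallisto estimates. The transcript that holds the 26 bases, ENST00000216037, was at 516 and 546 estimated counts with DMSO, at 967 and 1131 with UCI-1001 and at 1479 and 1672 with UCI-1014. It accounted for most of the XBP1 increase. The transcript without the 26 bases was at 97.1 and 55.9 with DMSO, at 42.2 and 62.8 with UCI-1001 and at 93.7 and 69.6 with UCI-1014, so that the DMSO libraries overlapped with those of each compound and the compounds did not overlap with each other.

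As a share of the estimated XBP1 counts, the spliced transcript made 15.0% and 8.87% with DMSO, 4.03% and 5.17% with UCI-1001, and 5.81% and 3.90% with UCI-1014. Both compounds lay below both controls. The difference from DMSO was -7.34 percentage points with UCI-1001 and -7.085 with UCI-1014, with an exact permutation p of 0.333 (two-sided, n = 2 per group) in each case, which is the smallest that 2 libraries against 2 can give. The compounds differed from each other by 0.255 percentage points (exact permutation p = 1, two-sided, n = 2 per group). The files hold the spliced transcript at 1131 bases, its coding length, and ENST00000216037 at 1850 bases, so reads outside the coding sequence can be given only to the latter and the shares are not a direct measure of splicing.

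In Saos-2 the spliced transcript was listed at 0 in all 3 p53-null libraries and in 2 of the p53-WT libraries, and made 7.88% (78.7 estimated counts) in p53-WT replicate 1, which is one of the libraries that stood apart. The difference had an exact permutation p of 1 (two-sided, n = 3 per group). ENST00000611155, an XBP1 transcript whose sequence was not analysed here, took 46.7 to 179 estimated counts in the other 5 Saos-2 libraries and 0 in p53-WT replicate 1 and all TOV-112D libraries. Counting it as spliced turned the p53-WT minus p53-null difference from 2.63 to -7.459 percentage points, so no direction is given for Saos-2.

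**Figure D4:**
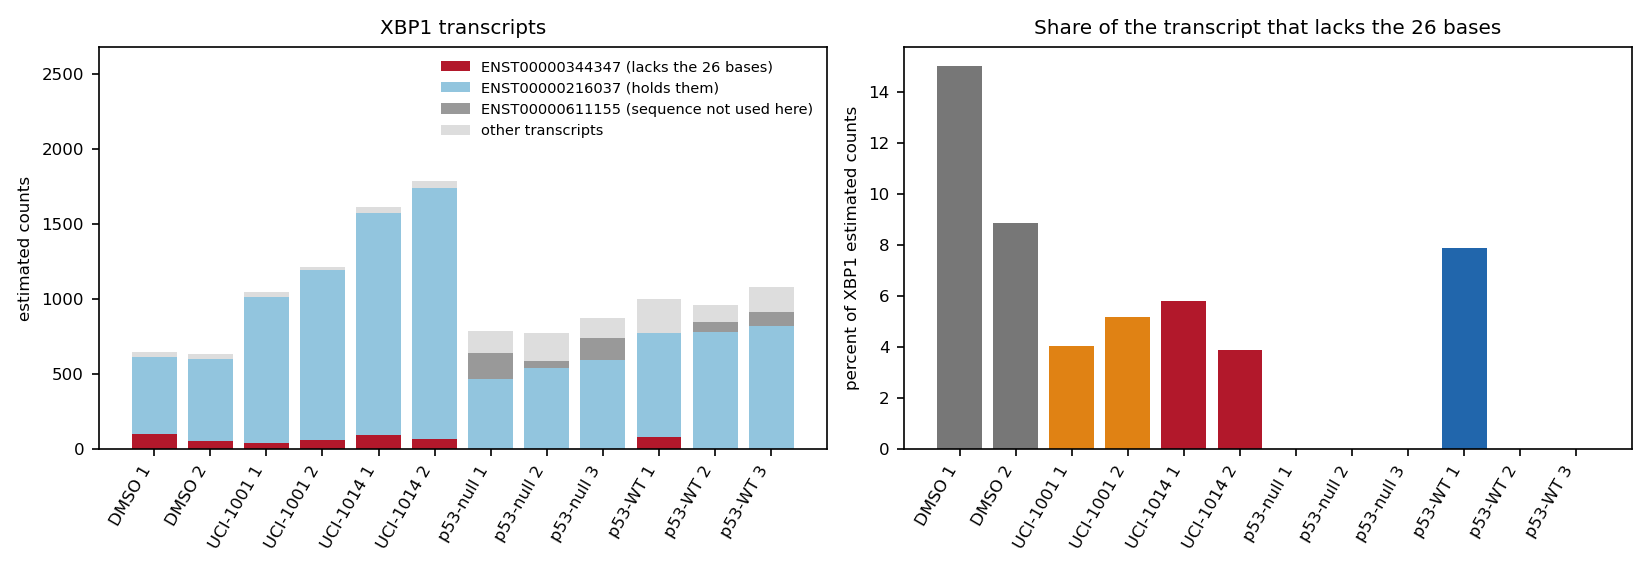
Left, estimated counts of the XBP1 transcripts in each library, stacked, with the transcript lacking the 26 bases in red at the base of each bar; right, the share of that transcript in percent of all estimated XBP1 counts. The bars grow from DMSO to UCI-1014 through the transcript that holds the 26 bases, and the share of ENST00000344347 is 15.0% and 8.87% with DMSO. ENST00000611155, which may or may not hold the 26 bases, is not counted in the share.

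The sensors were looked at next. Of the genes of the 3 sensors, of ATF6B, and of the proteases MBTPS1 and MBTPS2 that free ATF6 from the membrane, 3 of 6 rose with UCI-1001 and 0 fell, and 4 rose and 1 fell with UCI-1014, where 9.39% and 23.7% of all genes rose and 6.36% and 23.4% fell. ERN1 rose by 0.32 (adjusted p = 0.018, edgeR) and 0.79 (adjusted p = 1.95e-06, edgeR) on the log2 scale with UCI-1001 and UCI-1014, and EIF2AK3 by 0.39 (adjusted p = 0.006, edgeR) and 1.00 (adjusted p = 1.59e-07, edgeR). ATF6 was at 0.07 with UCI-1001 and rose by 0.22 with UCI-1014. The list's medians were 0.15 and 0.33, beside 0.00 and -0.02 over all genes. The calls with UCI-1001 depended on the setting: that of EIF2AK3 held in 11 of 13 alternatives and was lost without either DMSO library (adjusted p = 0.0648 and 0.0552, edgeR), that of ERN1 held in 9 of 14 and was lost by DESeq2 (adjusted p = 0.0778) and without DMSO replicate 1 or either UCI-1001 library (adjusted p = 0.216, 0.0648 and 0.0697, edgeR), and that of MBTPS2 (0.22) held in 6 of 14. On TPM ERN1 was at 0.09 with UCI-1001 (adjusted p = 0.818, limma) and at 0.38 with UCI-1014 (adjusted p = 0.128, limma), neither of them called.

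The counts of the following lists in TOV-112D stand beside 9.39% of all genes that rose and 6.36% that fell with UCI-1001. With UCI-1014 these shares were 23.7% and 23.4%. Of the 16 further folding genes of the ER, 1 rose and 0 fell with UCI-1001, and 4 rose and 4 fell with UCI-1014, a share of called genes close to the 47.1% of all genes called in that comparison. The rise with UCI-1001 was that of ERO1B, at 0.39, which held in 8 of 14 alternatives. HYOU1, an ER HSP110, lay at -0.04 and 0.04, CALR at 0.00 and -0.05, PDIA6 at -0.03 and -0.12, and DNAJB11 at 0.05 and 0.05, of which PDIA6 with UCI-1014 passed the test. DNAJC3 rose by 0.36 and ERO1B, an oxidase that serves disulfide formation, by 0.63 with UCI-1014. Of 11 further degradation genes tested 0 passed with UCI-1001 in edgeR's test, and with UCI-1014 3 rose, among them SELENOK at 0.47 and the ubiquitin ligase SYVN1 (HRD1) at 0.29, and 1 fell. SEL1L, the partner of SYVN1, was at -0.02 in both. Of 10 import and traffic genes, 1 rose with UCI-1001, SERP1 at 0.13, a call that held in 4 of 14 alternatives, and with UCI-1014 1 rose and 5 fell, among them the translocon genes SEC61G and SEC61B by 0.41 each on the log2 scale. The fall of KDELR3, another of these 5, held in 3 of 14 alternatives.

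All 6 genes of the PERK branch rose with each compound, with a median of 2.44 for UCI-1001 and 3.88 for UCI-1014. DDIT3 (CHOP), a transcription factor of the late stress response, was at 9.59 and 10.5 CPM with DMSO, 90.9 and 123 CPM with UCI-1001 and 298 and 253 CPM with UCI-1014. PPP1R15A (GADD34), a subunit of the phosphatase that reverses the eIF2alpha mark, rose by 1.45 and 2.32 and ATF4 by 0.44 and 1.17 on the log2 scale. ATF3 and CHAC1, both targets of ATF4, rose by 4.05 and 3.74 with UCI-1001 and by 5.72 and 5.25 with UCI-1014. As background, ATF4 and its targets also follow other kinases of eIF2alpha that do not sense the ER.

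Of the 17 cytosolic heat shock genes, 16 were raised by UCI-1001, all 17 by UCI-1014, and 0 fell. Their medians were 1.88 and 3.42, and the lowest single values were 0.40 and 1.12, beside medians of 0.01 and -0.01 for the 10 ER genes. CRYAB, at under 1 CPM with DMSO and with UCI-1001, was the gene that did not pass. HSPA6 had the largest changes, from 0.619 and 0.433 CPM with DMSO to 465 and 645 CPM with UCI-1001 and 1745 and 1174 CPM with UCI-1014. HSPA1A, the major inducible HSP70, was at 227 and 207 CPM with DMSO, 6441 and 7151 CPM with UCI-1001 and 25117 and 23715 CPM with UCI-1014, although reads of HSPA1A and the near-identical HSPA1B cannot be parted with certainty. DNAJB1 rose by 3.81 and 5.42, BAG3 by 2.98 and 4.80 and HSPH1 by 2.42 and 4.18. Set against their ER relatives, HSPA8 rose by 0.71 and 1.45 where HSPA5 was at 0.03 and 0.26, and HSP90AA1 by 1.10 and 2.22 where HSP90B1 was at -0.02 and 0.03. HERPUD1 and XBP1 were the 2 of the 10 genes whose change with UCI-1001 lay within the range of the heat shock genes.

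**Figure D5:**
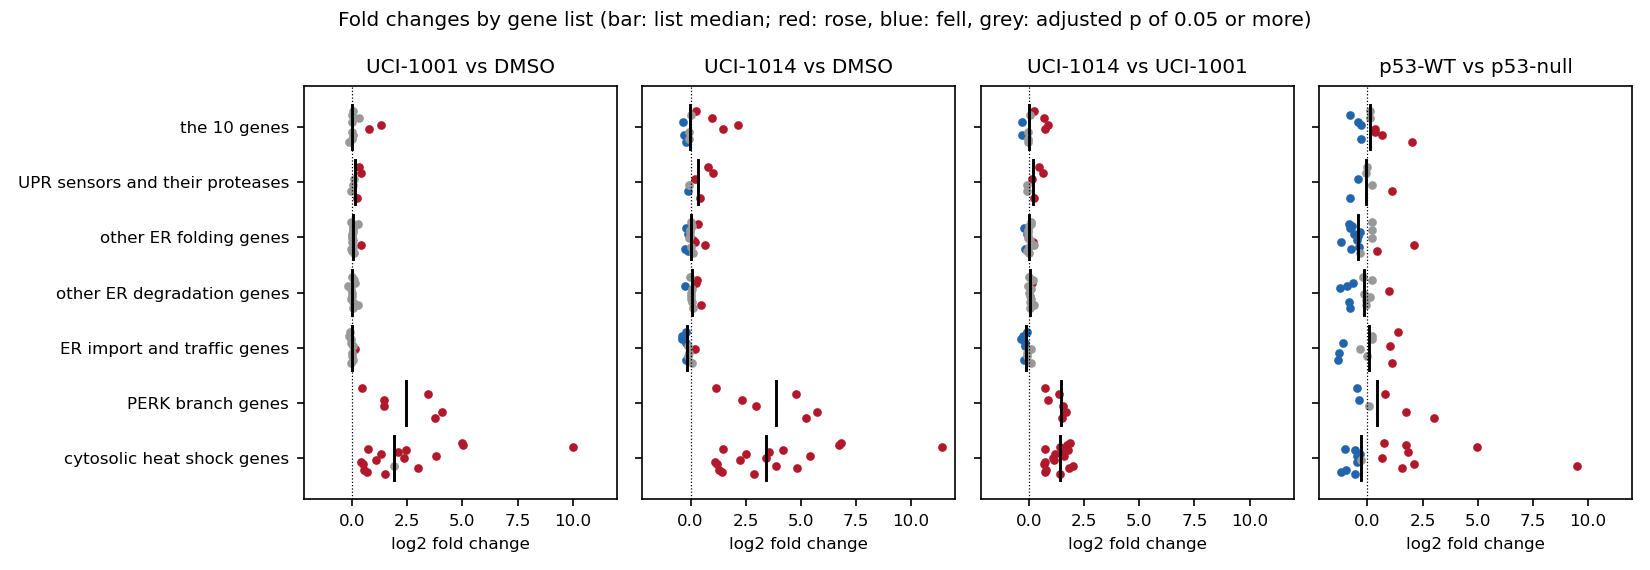
Log2 fold changes of every tested gene of the 7 lists in the 4 comparisons, with a bar at each list's median and colours as for the calls (red rose, blue fell, grey not called). With both compounds the medians of the ER lists lie between -0.15 and 0.33, with single genes at up to 2.15 (HERPUD1 with UCI-1014). All 6 PERK branch genes and nearly all 17 heat shock genes lie to the right. With p53-WT every list spreads to both sides.

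The last comparison asks which of the genes depend on p53-WT in Saos-2. Here 4 of the 10 genes rose, EDEM1, CRELD2, XBP1 and PDIA4, and 4 fell, HSP90B1, SDF2L1, HERPUD1 and MANF. Among all genes 33.5% rose and 33% fell, so the counts of the 10 genes are close to those of genes in general. In these bulk libraries a change in RNA per cell and a change in the makeup of the culture cannot be told apart. EDEM1 had the largest change of the 10 genes, from 20.6, 25.7 and 22.9 CPM in p53-null to 85.4, 99.7 and 94.6 CPM in p53-WT cells. The groups were far apart, with a log2 fold change of 2.02 (standard error 0.12, adjusted p = 9.03e-08, edgeR). EDEM2, its relative, rose by 0.99 (adjusted p = 6.84e-05, edgeR), and EDEM3 was at -0.17 and did not pass.

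HSP90B1 had the largest fall, from 729.8, 749 and 704 to 388, 439 and 432 CPM, a log2 fold change of -0.79 (standard error 0.10, adjusted p = 3.94e-05, edgeR). SDF2L1 fell from 29.1, 27.0 and 28.6 to 22.2, 18.9 and 21.7 CPM (log2 fold change -0.43, adjusted p = 0.0053, edgeR). CRELD2 rose from 17.0, 13.9 and 15.5 to 28.6, 22.9 and 21.2 CPM (log2 fold change 0.65, adjusted p = 0.0017, edgeR). In these genes every p53-WT library lay on the same side of every p53-null library.

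The remaining calls were smaller. XBP1 rose by 0.33 (adjusted p = 0.0127, edgeR) and PDIA4 by 0.33 (adjusted p = 0.0109, edgeR), while HERPUD1, at -0.29 (adjusted p = 0.0327, edgeR), and MANF, at -0.27 (adjusted p = 0.0337, edgeR), fell. HSPA5 was at 618, 617 and 603 CPM in p53-null and at 655, 660 and 653 CPM in p53-WT cells. Its libraries did not overlap, but its log2 fold change of 0.10 did not pass the test (95% interval -0.11 to 0.31). DNAJB9 overlapped between the groups, at 10.1 to 15.4 and 10.9 to 16.8 CPM.

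Without both replicate 1 libraries, all 8 calls held in direction, with EDEM1 at 2.01 and HSP90B1 at -0.73, and DNAJB9 was called as well, at 0.45 (adjusted p = 0.0074, edgeR), giving 9 called genes. Leaving out p53-null replicate 2 or p53-WT replicate 3 lowered the count from 8 to 5, with HERPUD1, MANF and XBP1 lost in both cases, and leaving out p53-null replicate 3 or p53-WT replicate 2 lost HERPUD1 and MANF, as did DESeq2 (adjusted p = 0.0676 and 0.0511). HERPUD1 was also lost without p53-null replicate 1, so that its fall held in 9 of 15 alternatives. With library totals in place of TMM the median of all genes fell to -0.16, XBP1 and PDIA4 were not called and HSPA5 and DNAJB9 turned to -0.05 and -0.01, giving 2 up and 4 down, and the share of rises among all calls moved from 50.4% to 41.8%.

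The wider lists were split in Saos-2, and their counts stand beside 33.5% of all genes that rose and 33% that fell. Of the 16 folding genes 2 rose and 10 fell, with a median of -0.41 beside -0.01 over all genes, where ERO1B at 2.11 and ERO1A at -1.21 were the outermost. Of 12 degradation genes 1 rose, the EDEM2 already given, and 5 fell, among them DERL3 at -1.25. Of 10 import and traffic genes 3 rose, among them the translocon gene SEC61A1 at 1.38, and 3 fell, among them KDELR3, a receptor that returns ER proteins, at -1.33. Of the 6 sensor and protease genes MBTPS1 rose by 1.13, and MBTPS2 fell by 0.80 and ATF6 by 0.43 on the log2 scale. ERN1 at -0.01 and EIF2AK3 at -0.07 did not pass. The PERK branch had 3 rises, CHAC1 at 3.02, ATF3 at 1.74 and DDIT3 at 0.78, and 2 falls, ATF4 at -0.46 and PPP1R15A at -0.40. Of the 17 heat shock genes 8 rose and 8 fell, with a median of -0.28. CRYAB was not detected in any p53-null library (0 counts in each) and stood at 4.92, 3.83 and 3.57 CPM in the p53-WT libraries, at least 29.9-fold above the level that 3 counts per p53-null library would give. HSPA8 fell by 1.01 on the log2 scale, a change in the same direction as that of HSP90B1, while HSPA1A rose by 0.77 and BAG3 by 1.59.

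As a description, the genes outside the 10 whose level ran most like that of HSPA5 were sought among the 12939 genes tested in both cell lines, by Pearson correlation of log2 CPM over the 12 libraries after centring within each cell line. They were SLU7 (0.98), RAB3GAP2 (0.97), NOCT (0.97), SNAPC1 (0.97) and TSPYL2 (0.97). The 12 points share their groups, so few of them are independent. Among the 10 genes themselves, HSPA5 ran most like XBP1 (0.90) and DNAJB9 (0.83) and opposite to SDF2L1 (-0.79), and HSP90B1 ran opposite to PDIA4 (-0.97) and EDEM1 (-0.97).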

How the data were processed

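RNA was extracted with a column kit and sequenced in 12 libraries. The authors quantified the reads against GRCh38 with kallisto 0.48.0 and deposited, for each library, estimated counts and TPM of 187626 transcripts, and a table of whole-number gene counts that are not normalized. The strand setting and the annotation are not given in the sources used here. The deposited estimated counts were used for the XBP1 transcripts, and the deposited TPM for levels and for an alternative on log2(TPM + 1).

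Counts were summed by symbol and tested with edgeR 4.0.16 in R 4.3.3 (TMM, filterByExpr, glmQLFit, glmQLFTest) over the whole table, with 1 fit per cell line, by code tested on simulated data. Alternatives used limma 3.58.1 and DESeq2 1.42.0, left out each library in turn, or changed the scaling, the filter, the block, the samples in the fit or the unit of counting; the authors used DESeq2 1.38.3. Transcripts were matched to GENCODE release 44 (165859 of them). On the TPM scale 10 genes of the wider lists, 3 of them heat shock genes, were left out because their transcript sums differed from their gene counts by over 10% in at least 1 library.

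The 10 genes, the lists, the motifs, the tests and the rule for named genes were chosen with earlier results of these data known. Named were the 10 genes, a fixed set of the lists' genes, the 2 largest called changes of each list in each comparison, and the 5 genes most like HSPA5; ATF6B, EDEM3, the promoters with a motif and the markers are named outside that rule, after their values were seen.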

Additional observations from a re-analysis of the deposited data

How the results depend on the processing

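Of the 10 genes, HERPUD1, XBP1, DNAJB9 and HSPA5 stayed called higher with UCI-1014 than with DMSO, and HERPUD1 and XBP1 higher with UCI-1001, under every alternative run. DNAJB9 was not called between the compounds on TPM (0.34, adjusted p = 0.292, limma). In Saos-2, EDEM1, CRELD2, HSP90B1, SDF2L1 and PDIA4 held under leaving out each library, PDIA4 with adjusted p-values of up to 0.049 (edgeR). Depth limits DNAJB9 most, at 5.09 to 16.8 CPM. On TPM, without the 3 heat shock genes left out there, 13, 14 and 14 heat shock genes rose in the 3 TOV-112D comparisons and 0 fell, and in Saos-2 6 rose and 8 fell. Among the wider lists with UCI-1014, the fall of MBTPS1 held in 9 of 14 alternatives and that of KDELR3 in 3 of 14. The calls of ATF6, DNAJC3, PDIA6 and SYVN1 held in 12 of 14 each. For the changes below the cause was not tested.

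All genes called with UCI-1001 were 2232, but 1284 by DESeq2, 486 by limma on TPM and 952 to 2538 when a library was left out. With UCI-1014 they were 6677, but 3974 by limma on TPM, and between the compounds 4406, but 2891 by DESeq2 and 2080 by limma on TPM. Called among the 10 genes in Saos-2 were 5 to 9 when libraries were left out, against 8. Counting ENST00000611155 as spliced made the p53-WT minus p53-null difference in XBP1 share -7.459 percentage points, against 2.63.

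Whether the replicate numbers pair the libraries was not settled. Deviations of same-numbered Saos-2 libraries correlated at 0.139, 0.092 and 0.075, and those of differently numbered libraries at -0.184 to 0.132. Of these, p53-null replicate 2 correlated best with p53-WT replicate 3 (0.132). Same-numbered TOV-112D groups gave 0.063, -0.030 and -0.164. With 2 libraries per group, differently numbered ones must give the same values with the opposite sign, so these cannot decide the question. With a replicate block 2, 7, 6 and 8 of the 10 genes were called in the 4 comparisons, as without it, and 1774, 6307, 3882 and 9814 of all genes.

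Signs turned as follows, in log2 units. DESeq2 gave PDIA4 0.0033 (UCI-1001), DNAJB11 0.0083 (between compounds) and ERN1 0.0128 (p53-WT); RLE factors gave 0.0033, 0.0081 and 0.0129. By Ensembl identifier CALR was -0.0034 and DNAJB11 0.0069, without a filter CALR was -0.0036 and SEL1L -0.0067, and with only the compared groups CALR was -0.00048 and DNAJB11 0.0029. Library totals gave CALR -0.0195 and ERO1A -0.0158 (UCI-1001); HSP90B1 -0.101 (called, adjusted p = 0.0151, edgeR), HYOU1 -0.0953, DNAJB11 -0.0899 and EDEM2 -0.0923 (UCI-1014); HSP90B1 -0.06, HYOU1 -0.039, DNAJC3 -0.0085, SEL1L -0.1132, EDEM2 -0.0063 and SERP1 -0.0337 (between compounds); and HSPA5 -0.0531, DNAJB9 -0.0082 and TRIB3 -0.098 (p53-WT). TPM gave SDF2L1 0.0031, PDIA4 0.0071, EDEM1 0.2384, SEC61G 0.0393 and DNAJC10 -0.0562 (UCI-1001); MANF 0.0283, DNAJC3 -0.0513, SEL1L -0.0773 and SERP1 -0.1594 (between compounds); and HSPA5 -0.1189, CALR -0.0116, SYVN1 -0.0124, ERN1 0.0066, SEC61G -0.0051, SEC61B -0.0152 and TRIB3 -0.1512 (p53-WT).

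Leaving out libraries turned these values, none of them called with all libraries, over the ranges given; the highest for DNAJB9 was called. With UCI-1001 SDF2L1 ran from -0.068 to 0.0143, PDIA4 from -0.0156 to 0.0108, MANF from -0.067 to 0.0027, CALR from -0.0088 to 0.0057, SEL1L from -0.0403 to 0.0019, EDEM2 from -0.1491 to 0.0206, ERO1A from -0.0179 to 0.0215 and SEC61G from -0.1052 to 0.0127. With UCI-1014 CALR ran from -0.0885 to 0.002, SEL1L from -0.034 to 0.0256 and EDEM2 from -0.0415 to 0.1415. Between the compounds MANF ran from -0.1147 to 0.0225, DNAJB11 from -0.0048 to 0.0293, CALR from -0.0864 to 0.0034 and SEL1L from -0.015 to 0.0452. With p53-WT DNAJB9 ran from -0.0065 to 0.4529, ERN1 from -0.1056 to 0.0642, EIF2AK3 from -0.1516 to 0.0436, SELENOK from -0.1188 to 0.1075 and TRIB3 from -0.0704 to 0.1343.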
